A study of Mus musculus with 2 samples.

Results

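Calcium that is released in a muscle fibre acts on gene activity through a kinase, CaMKII, and a phosphatase, calcineurin. The RNA levels of 10 genes of these pathways are described here: the CaMKII genes Camk2a, Camk2b, Camk2d and Camk2g, the calcineurin A genes Ppp3ca and Ppp3cb, the calcineurin inhibitor Rcan1, and the calsarcin genes Myoz1, Myoz2 and Myoz3. They were taken by name from the 55450 annotated genes of the deposited gene tables that could be joined to a symbol. All 10 were found, each under 1 gene ID. The tissue was gastrocnemius, a calf muscle, of male B6CASTF1/J mice, hybrids of C57BL/6J and CAST/EiJ, whose age the description gives as 18 to 20 months. The single group had 2 libraries of total RNA, made from 300 ng each with ERCC spike-ins (synthetic RNAs added in known amounts). No mutation, drug or treatment is named, and there was no second condition, so each comparison is between these libraries. The labels number them as biological replicates 1 and 2, from separate tissue samples with 1 donor record in common, so part of the spread between them may be technical.

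CaMKII is a ring of kinase subunits that calcium-loaded calmodulin switches on, and in muscle it acts on calcium release and on repressors of the MEF2 transcription factors. Calcineurin, a pair of a catalytic A and a regulatory B subunit, is switched on by the same calmodulin and dephosphorylates NFAT factors, which then enter the nucleus; in muscle the pathway is known for its part in the slow-fibre gene programme. RCAN1 binds and inhibits calcineurin, and 1 of its transcripts is a known NFAT target. Calsarcins, the proteins of the Myoz genes, sit at the Z-disc, where they hold calcineurin next to alpha-actinin, telethonin and filamin C. Myoz1 and Myoz3 are known as calsarcins of fast fibres and Myoz2 as that of slow fibres and heart.

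The gene tables held 40795740 expected counts in replicate 1 and 44919441 in replicate 2. The biological coefficient of variation, the spread between the libraries beyond counting noise, was 22.7% by edgeR's common dispersion. Of 13 slow-fibre markers, 13 were called higher in replicate 2 by an exact binomial test of the counts, from 4.26-fold for Casq2 to 28.3-fold for Csrp3. Their summed level was 351 and 3281 TPM (a transcript level scaled by length and by library). Of 13 fast-fibre markers, 2 were higher in replicate 2, the myosins Myh1 and Myh2, none was called higher in replicate 1, and the sum was 110737 and 84737 TPM. The 7 neuron markers were each under 0.5 TPM. Of 7 heart markers, Nppa, Nppb and Myl7 were at 0 in both libraries. Of the 3 tested, 2 were called higher in replicate 2, the heart myosin Myh6 (5.88 and 73.2 TPM) and Ryr2 (0.04 and 0.19 TPM). The expected counts of Myh6, 257.57 and 3346.47, are not whole numbers, so some of its reads were shared out with other genes. Of other cell types, 2 of 7 Schwann cell markers (summed level 30.2 and 44.3 TPM), 2 of 6 endothelial (45.5 and 64.0 TPM), 2 of 6 smooth muscle and pericyte (109 and 156 TPM) and 2 of 6 adipocyte markers (94.2 and 129.9 TPM) were called higher in replicate 2, and 1 adipocyte marker in replicate 1. None of the tested fibroblast and tendon, immune or satellite cell markers was called. A call needed a 2-fold difference and an adjusted p below 0.05, as set out below. Among all genes tested, 4.48% met this toward replicate 2 and 1.7% toward replicate 1. When scaled by the spike-ins, the Schwann list had 4 of 7 calls, and the other lists of these cell types kept theirs. The edgeR exact test, described below, did not call the Schwann, endothelial, smooth muscle and pericyte or adipocyte markers. Fewer fibres of a type and less RNA per fibre cannot be told apart in such bulk libraries.

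In levels the fast-fibre calsarcin Myoz1 stood far above the other genes, whose means ran from 29.0 to 207 TPM. Myoz1 had 1615 TPM in replicate 1 and 1165 TPM in replicate 2 (1390 ± 318 TPM, SD, n = 2), rank 24 by mean among 21938 nuclear protein-coding genes. Camk2a followed with 256 and 158 TPM (207 ± 69.4, rank 239). Next in the order of means came Myoz2, Ppp3cb, Rcan1, Camk2g, Ppp3ca, Myoz3 and Camk2b, from 91.7 down to 67.7 TPM, and Camk2d was lowest at 29.0 TPM (rank 1813). Neighbours in the order of these 7 did not differ beyond the larger of their SDs between libraries, although genes farther apart in it did, such as Ppp3cb above Ppp3ca and Myoz3. Rcan1 and Myoz2 moved most: they ranked 2274 and 2725 in replicate 1 and 404 and 340 in replicate 2.

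**Figure D1:**
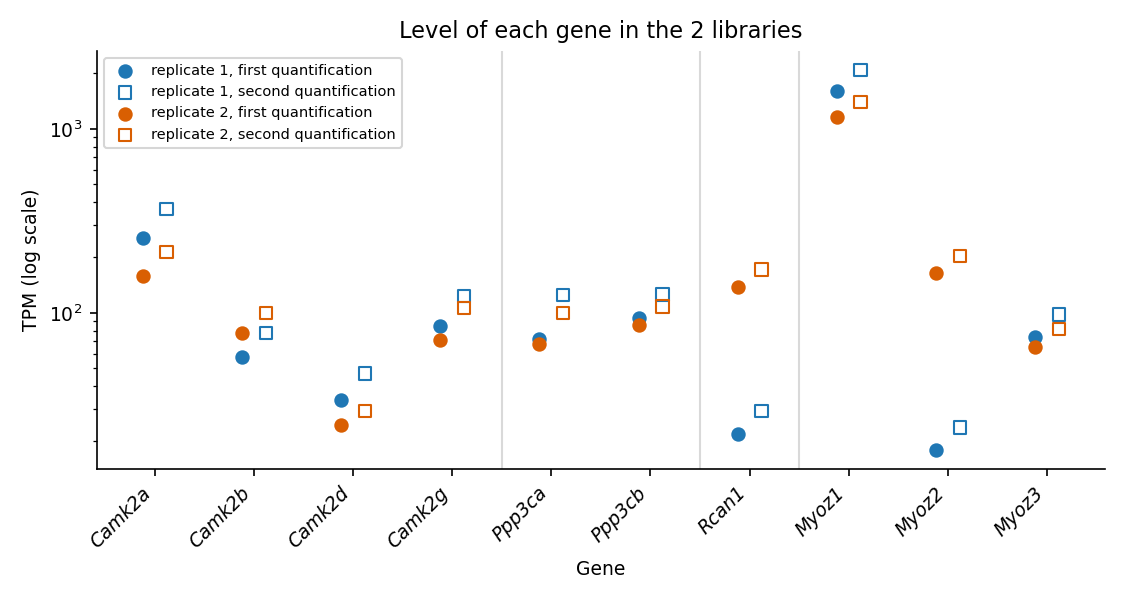
Level of each of the 10 genes in TPM (log axis), with filled circles for the first quantification, open squares for the second, blue for replicate 1 and orange for replicate 2; grey lines part CaMKII, calcineurin A, Rcan1 and calsarcins. Rcan1 (22.0 and 139 TPM) and Myoz2 (18.0 and 165 TPM) show the widest gaps between libraries, and Myoz1 lies above all others in both.

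The libraries were compared gene by gene with a 2-sided exact binomial test on expected counts, over the 14958 genes whose mean count reached 10. Calls needed a 2-fold difference and a p below 0.05 after Benjamini-Hochberg adjustment over all of them. The test covers counting error only and compares these libraries, not conditions. Of the 10 genes, 2 were called, Rcan1 and Myoz2, beside a background of 6.18% of all genes tested. Both were higher in replicate 2, where the background was 4.48%, and 0 of 10 were called higher in replicate 1, where it was 1.7%. The edgeR exact test, with 1.82% of all genes called, and the second quantification, with 6.1%, called the same 2, but edgeR's test had 1 library a side and took its dispersion from the difference it tests, so it is no replicate check. Without the fold threshold all 10 had an adjusted p below 0.05, 3 with the higher value in replicate 2 and 7 in replicate 1. Of all genes tested, 35.4% had such a p. The 10 had at least 602 counts in each library, and a counting test passes small differences at high counts. The share among genes of like counts was not taken. Log2 ratios (replicate 2 over replicate 1) had a median of -0.21 over the 10 genes and 0.01 over all genes tested.

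**Figure D2:**
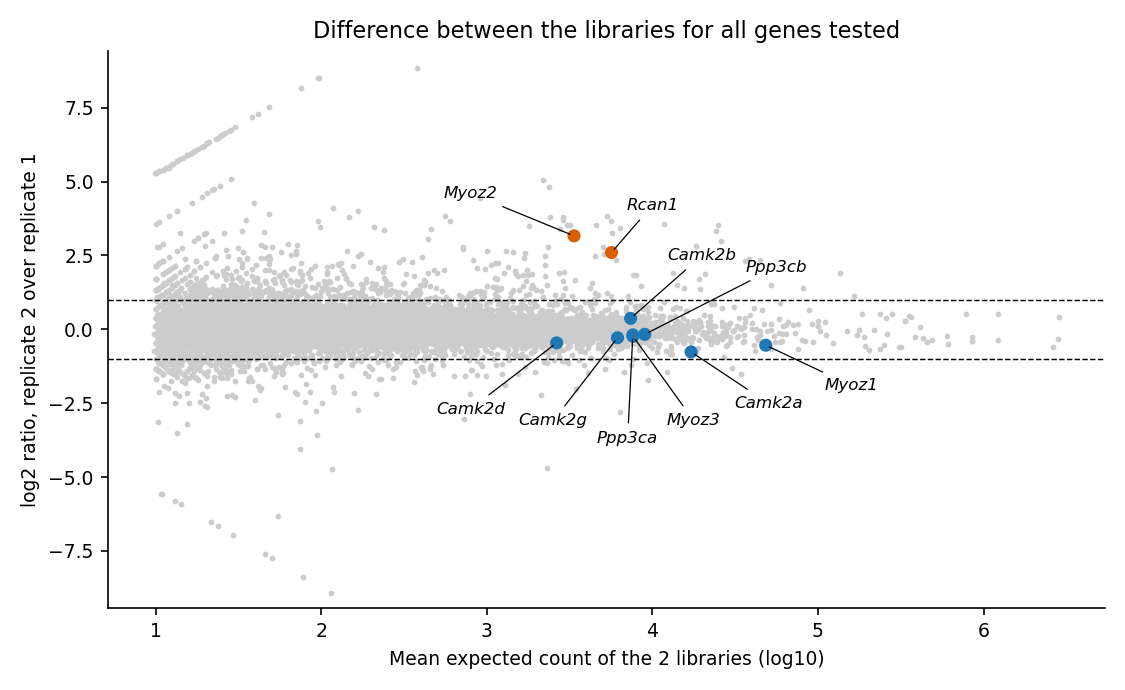
Log2 ratio of replicate 2 to replicate 1 (vertical axis) against the mean expected count (log10, horizontal axis) for the 14958 genes tested in grey, the 2 called genes of the pathways in orange and the other 8 in blue; dashed lines mark 2-fold. Myoz2 (3.16) and Rcan1 (2.60) lie above the upper line, and the other 8 lie between the lines, from -0.77 to 0.37; the signs of Ppp3ca and Ppp3cb turn with spike-in scaling.

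The scaling matters for the small ratios. With spike-in counts in place of TMM library sizes the median of all genes shifted by 0.22 on the log2 scale, and the share of calls that were higher in replicate 2 went from 72.5% (670 against 254) to 86.4% (1058 against 166). Of the 10 genes, Rcan1 and Myoz2 were again the 2 called. Ppp3ca and Ppp3cb turned from -0.19 and -0.17 to 0.03 and 0.05, so that 5 of the 10 lay above 0 in place of 3.

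CaMKII is built from subunits of several genes, and the alpha gene, over all its transcripts, gave the largest share of the family's RNA in both libraries. Most of its TPM, though not of its expected counts, was assigned to short forms, described below. Camk2a had 20523 expected counts in replicate 1 and 13712 in replicate 2, 1.70-fold higher in replicate 1 (95% counting interval 1.66 to 1.74), under the 2-fold threshold. It made up 59.4% of the summed TPM of the CaMKII genes in replicate 1 and 47.7% in replicate 2 (53.5 ± 8.23%). Camk2b, the beta gene, differed in the other direction, with 57.4 and 78.0 TPM (67.7 ± 14.6). Its counts were 1.29-fold higher in replicate 2 (1.25 to 1.34), and its share was 13.3% and 23.5%.

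The gamma and delta genes, which are active in many tissues, held similar shares of the family in both libraries. Camk2g had 84.6 and 70.8 TPM (77.7 ± 9.79), a share of 19.6% and 21.4%. Camk2d, the delta gene that leads in heart, had 33.6 and 24.5 TPM (29.0 ± 6.41), a share of 7.77% and 7.39%. Both had higher counts in replicate 1, by 1.22-fold for Camk2g (1.18 to 1.26) and 1.38-fold for Camk2d (1.30 to 1.45). Camk2g therefore stood above Camk2b in replicate 1 and below it in replicate 2. In the second quantification Camk2g stood above in both, with 124 and 107 TPM against 77.6 and 99.4 TPM. There 32.9 and 25.1 TPM of Camk2g lay in the non-coding Camk2g-207, which had 0.33 and 0 TPM in the first quantification.

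Most of the Camk2a TPM, which is scaled by length, was assigned to short forms that start inside the gene. Most of the expected counts went to the full-length Camk2a-203, with 14775 in replicate 1 and 9960 in replicate 2. The short Camk2a-204 had 2944 and 2153 counts over 979 bases. Camk2a-202, also short, had 2804 and 1599 over 1734 bases. The full-length Camk2a-203 (18 exons, 1434 coding bases) held 37.5% and 37.4% of the gene's TPM, or 96.1 and 59.1 TPM. Alone it lay above the protein-coding transcripts of Camk2b (57.0 TPM) and Camk2g (62.5 TPM) in replicate 1. In replicate 2 it lay below those of Camk2b (76.3 TPM) and near those of Camk2g (56.4 TPM). The gene's lead in TPM in both libraries is therefore not a lead in TPM of its full-length form. Camk2a-204 (7 exons, 600 coding bases) held 41.3% and 44.7%, and Camk2a-202 (567 coding bases) 21.2% and 17.9%. Both short forms start at the same internal exon and differ by a 33-base exon that Camk2a-204 holds. This is the layout of alpha-KAP, a protein from within the Camk2a gene that anchors CaMKII to the membranes of the muscle's calcium store. Together the short forms held 62.5% and 62.6% (160 and 99.0 TPM), so the 2 libraries gave nearly the same split although the gene's level differed 1.70-fold. The second quantification gave 66.9% and 67.2%. Of the 4970 bases of Camk2a-203, 2455 (49.4%) lie in its last exon beyond the ends of both short forms, and how that length bears on the split was not tested.

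The Camk2b RNA came mainly as a pair of forms that part at a block of exons known from muscle. Camk2b-209 (1626 coding bases) held 58.2% and 54.7% (33.4 and 42.7 TPM). Camk2b-202 (24 exons, 1998 coding bases) held 32.6% and 32.4% (18.7 and 25.2 TPM), nearly the same share in both libraries and 32.4% and 31.8% in the second quantification. It carries 3 exons, 372 bases in all, that Camk2b-209 skips, and the insert they encode in the linker of the kinase is known as proline-rich. Exons 1 and 2 of the insert are printed because they set the muscle form apart, from mm10 with GENCODE M21 (the C57BL/6J reference, while these mice also carry CAST/EiJ copies), 5′ to 3′ on the minus strand, with the in-frame CCN codons, those of proline, in capitals.
Camk2b insert exon 1 (chr11:5978399-5978512): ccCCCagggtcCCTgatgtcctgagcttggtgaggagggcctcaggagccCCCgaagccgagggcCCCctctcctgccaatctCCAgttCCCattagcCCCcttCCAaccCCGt
Camk2b insert exon 2 (chr11:5977812-5977940): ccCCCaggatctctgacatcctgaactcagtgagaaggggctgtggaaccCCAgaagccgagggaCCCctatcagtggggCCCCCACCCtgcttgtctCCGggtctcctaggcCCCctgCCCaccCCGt

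The marked codons number 9 in the first exon and 10 in the second. Of the TPM of the gene's coding transcripts, the first exon was in 32.8% and 33.1% (replicates 1 and 2) and the second in 33.3% and 33.1%. The insert's share thus differed far less between the libraries than the gene's level did. Camk2b-209 has 2036 bases (50.6% of its 4023) of 3′ end beyond that of Camk2b-202, which bears on how reads are shared out between them and was not tested.

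Camk2d and Camk2g were spread over many annotated transcripts, several without a coding frame. Of Camk2d's TPM, 58.6% and 59.1% lay in protein-coding transcripts, led by Camk2d-206 at 25.3% and 29.5% (39.6% and 44.0% in the second quantification). The retained-intron fragment Camk2d-217 held 36.9% and 32.2% (31.8% and 22.0%). Camk2d-228 held 10.6% and 9.56% and Camk2d-221 10.4% and 8.87%, while the second quantification gave 3.80% and 0.08% and 14.7% and 14.9% for them. Of a pair of 73-base exons that exclude each other, the first was in 82.3% and 85.0% of the TPM of coding transcripts that span it and the second in 17.7% and 15.0%. In the second quantification the first was in 76.6% and 78.6%.

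In Camk2g, 73.9% and 79.6% of TPM lay in coding transcripts, with Camk2g-202 at 34.0% and 35.3%, Camk2g-203 at 20.6% and 18.7% and Camk2g-201 at 7.75% and 9.27%. The partial coding form Camk2g-209 held 3.66% and 9.41%. The quantifications placed the non-coding share differently. Camk2g-215 (13.5% and 6.41%) and Camk2g-208 (10.4% and 11.6%) led in the first, and Camk2g-207, at 0.38% and 0% there, held 26.6% and 23.6% in the second. Among coding forms a 69-base exon was included in 62.5% and 67.8%, a 33-base exon in 20.7% and 18.4% and a 63-base exon in 14.6% and 20.5%. The second quantification gave 67.9% and 66.7%, 28.7% and 27.0%, and 21.5% and 31.2% for these exons.

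**Figure D3:**
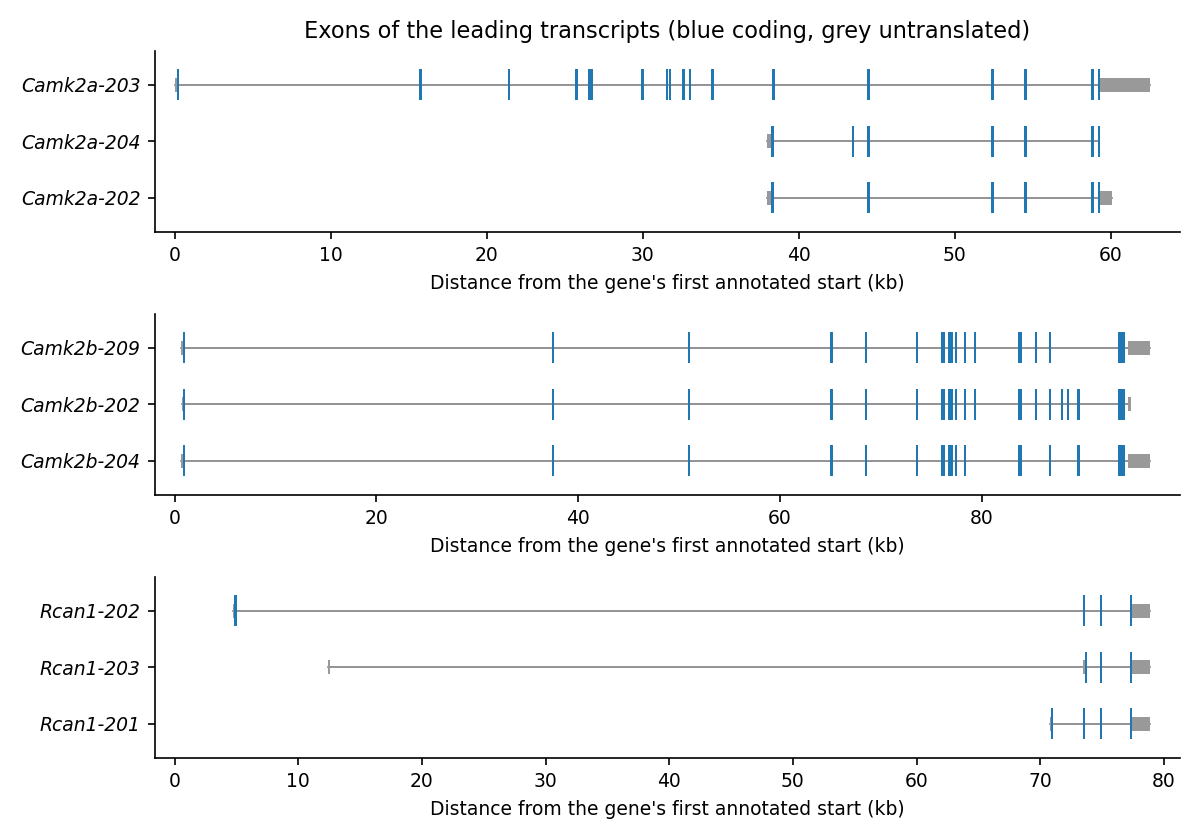
Exons of the leading Camk2a, Camk2b and Rcan1 transcripts, drawn to scale along the distance from each gene's first annotated start (kb, in the direction of transcription), with coding parts in blue and untranslated parts in grey. Camk2a-204 and Camk2a-202 begin inside the gene, Camk2b-202 alone of the 3 shown holds all 3 insert exons, and Rcan1-201 begins close to the shared last exons.

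Calcineurin's catalytic genes had the smallest ratios of the 10 with TMM sizes (with spike-in scaling Myoz3 had, at -0.01). Ppp3cb had 93.4 TPM in replicate 1 and 85.9 TPM in replicate 2 (89.7 ± 5.33), and Ppp3ca 72.1 and 67.3 TPM (69.7 ± 3.41). Counts were 1.13-fold (1.09 to 1.16) and 1.14-fold (1.11 to 1.18) higher in replicate 1 with TMM sizes, and slightly higher in replicate 2 with spike-in scaling. Ppp3cb made up 56.5% and 56.1% of their sum, and 50.2% and 51.9% in the second quantification, so Ppp3cb was the higher of the pair in both, by a gap whose size depends on the quantification. The testis-enriched Ppp3cc added 7.91 and 8.13 TPM. Of the regulatory B genes, Ppp3r1 had 66.0 and 58.0 TPM and the testis gene Ppp3r2 was at 0 in both libraries.

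Both catalytic genes have an alternative exon of 30 bases near the 3′ end of the coding frame, which adds whole codons before the autoinhibitory end of the protein. The exons are printed to show how alike they are, from the same reference, 5′ to 3′, with the bases that differ between them in capitals.
Ppp3ca alternative exon (chr3:136932011-136932040, plus strand): cTacTgttgaggctattgaggctgaTGaag
Ppp3cb alternative exon (chr14:20503247-20503276, minus strand): cCacAgttgaggctattgaggctgaAAaag

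The exons match at 26 of 30 bases (86.7%). Their use differed between the genes in the first quantification: the Ppp3ca exon was included in 49.7% and 53.5% of the TPM of coding transcripts, and the Ppp3cb exon in 88.9% and 87.4%. In the second quantification the Ppp3ca values were close, 46.6% and 50.6%, but the Ppp3cb values were 55.9% and 60.6%, so the size of the gap depends on the quantification. The Ppp3ca forms behind this were Ppp3ca-201 with the exon (49.0% and 52.9%) and Ppp3ca-202 without it (49.6% and 45.9%). For Ppp3cb they were Ppp3cb-205 (66.3% and 61.1%) and Ppp3cb-202 (14.6% and 17.4%) with the exon and Ppp3cb-201 without it (10.1% and 11.3%, but 41.8% and 37.2% in the second quantification). The non-coding Ppp3ca-204 held 0.30% and 0% in the first quantification and 21.3% and 12.2% in the second.

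Rcan1, whose protein binds calcineurin and inhibits it, had 22.0 TPM in replicate 1 and 139 TPM in replicate 2 (80.4 ± 82.6), from 1436 and 9881 expected counts. Its counts were 6.06-fold higher in replicate 2 (5.73 to 6.41), and 5.96-fold (5.65 to 6.30) in the second quantification. Replicate 2 was high and replicate 1 low in both. The slow-fibre markers were higher in that library as well, by a median log2 ratio of 3.39, and the medians of the Schwann, endothelial, smooth muscle and adipocyte markers lay between 0.49 and 0.83. The part of these cells in the Rcan1 difference was not tested.

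Rcan1 has alternative first exons followed by shared exons. The upstream and internal first exons each have a start codon, while in Rcan1-203 the coding frame starts in a shared exon. The upstream exon, that of Rcan1-202, gives the longer protein and the internal exon, that of Rcan1-201, the shorter one, whose start is the known NFAT-responsive promoter. The coding parts of both exons are printed from mm10 with GENCODE M21, 5′ to 3′ on the minus strand, with the start codon in capitals, because the libraries and the quantifications differed in which exon the reads were given to.
Rcan1 internal first exon (chr16:92399896-92399982): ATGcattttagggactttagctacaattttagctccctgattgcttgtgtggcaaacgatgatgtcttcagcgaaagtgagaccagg
Rcan1 upstream first exon (chr16:92465833-92466078): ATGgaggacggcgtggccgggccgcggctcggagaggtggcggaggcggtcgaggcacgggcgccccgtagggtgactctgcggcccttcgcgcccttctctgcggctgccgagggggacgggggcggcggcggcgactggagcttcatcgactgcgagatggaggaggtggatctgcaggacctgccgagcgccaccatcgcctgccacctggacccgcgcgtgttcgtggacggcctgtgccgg

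In the first quantification transcripts with the internal exon held 65.8% of Rcan1's TPM in replicate 1 and 91.0% in replicate 2, or 14.5 and 126 TPM. Nearly all of this was Rcan1-201, with 899 and 8884 expected counts and a deposited posterior SD of 61.5 and 84.1 counts. Transcripts with the upstream exon held 7.53 and 12.5 TPM, so most of the gene's difference was placed at the internal start. The second quantification placed it elsewhere. There the internal exon held 3.76% and 3.09%, the upstream exon 78.9% and 63.7% (23.1 and 109 TPM), and Rcan1-203, at 0 in the first quantification, 17.3% and 33.2%. For the whole gene the library ratios were close, 6.06-fold in the first quantification and 5.96-fold in the second. The levels were higher in the second, at 29.3 and 172 TPM. The quantifications differ on the first exon, and the cause was not tested.

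The 250 bases before each Rcan1 start were taken from RefSeq on GRCm38.p6, which shares its coordinates with mm10. The stretch before the internal start (16:92400079 to 92400328, minus strand) is printed because the first quantification put the library difference there, with the core GGAAA of NFAT sites, searched on both strands, in capitals.
Rcan1 internal start, 250 bases before: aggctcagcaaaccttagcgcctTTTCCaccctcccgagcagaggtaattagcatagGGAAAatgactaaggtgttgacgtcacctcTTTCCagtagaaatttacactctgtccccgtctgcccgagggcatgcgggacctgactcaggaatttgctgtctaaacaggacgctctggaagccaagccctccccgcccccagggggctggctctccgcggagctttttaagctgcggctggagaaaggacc

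The stretch holds GGAAA 3 times, at 227 to 223, 193 to 189 and 163 to 159 bases before the start, and 6.39% of 32841 promoters of the same length hold as many, while 55.6% hold at least 1. It also holds the AP-1 core TGANTCA once, at 110 to 104 bases before the start, as do 6.75% of promoters. The 250 bases before the upstream start hold neither. Ppp3cb's promoter holds GGAAA 3 times too, at a gene that was not called. Such matches describe the letters and are no evidence of binding.

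**Figure D4:**
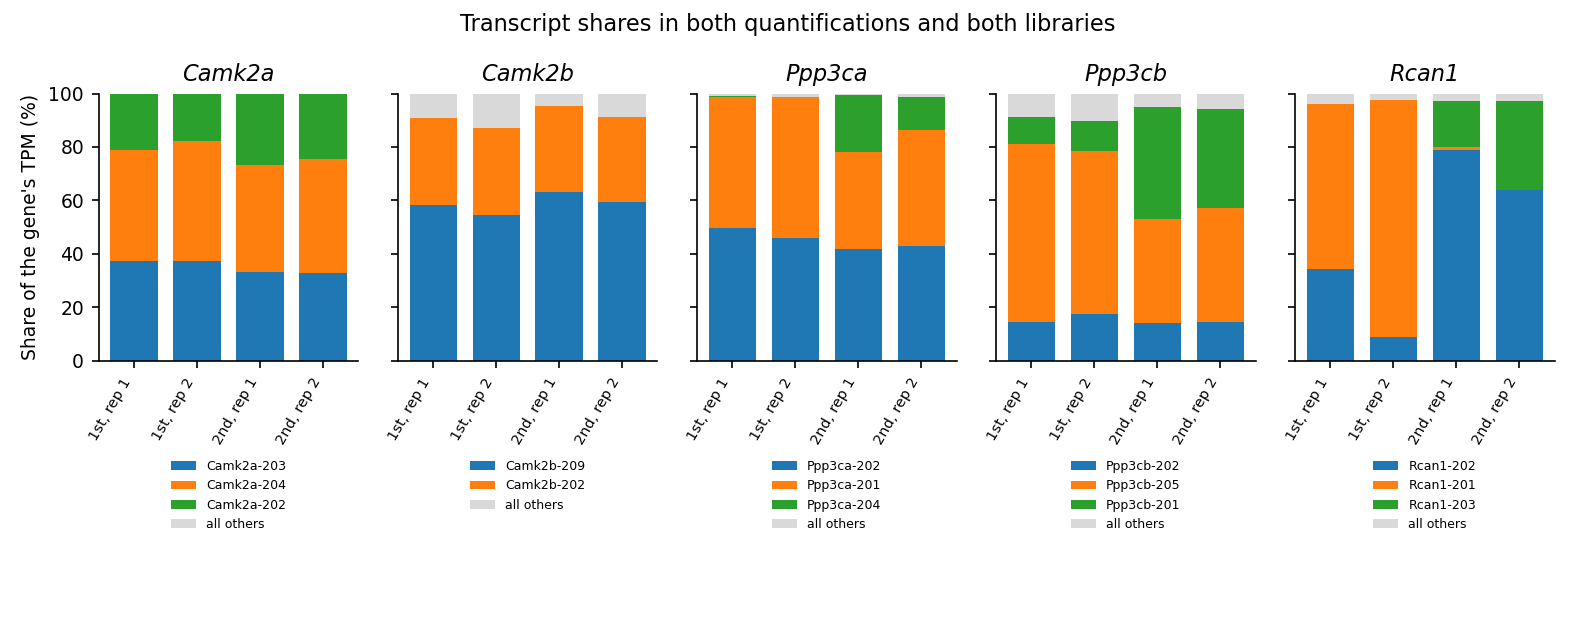
Share of each gene's TPM (%) held by its leading transcripts in the first (1st) and second (2nd) quantification of replicates 1 and 2, for Camk2a, Camk2b, Ppp3ca, Ppp3cb and Rcan1; grey stands for all other transcripts. The splits of Camk2a and Camk2b are alike in the 4 bars, while Rcan1-201 goes from 61.8% and 88.5% in the first quantification to 1.19% and 0.12% in the second.

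The calsarcins spanned the widest range of levels among the families and held the largest ratio between libraries. Myoz1, the fast-fibre form, had 54284 and 42436 expected counts, 1.45-fold higher in replicate 1 (1.43 to 1.47). It made up 94.6% of the calsarcin TPM in replicate 1 and 83.5% in replicate 2 (89.1 ± 7.87%). Myoz3 had 73.8 and 64.9 TPM (69.3 ± 6.23), 1.18-fold higher in replicate 1 (1.14 to 1.22), a share of 4.32% and 4.65%.

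Myoz2, the slow-fibre and heart form, had 18.0 TPM in replicate 1 and 165 TPM in replicate 2 (91.7 ± 104), from 602 and 6118 expected counts. It was 8.95-fold higher in replicate 2 (8.23 to 9.75), and called in both quantifications. Its share went from 1.05% to 11.9%, so that it stood below Myoz3 in replicate 1 and above it in replicate 2. The ratio is near that of slow-fibre markers such as the myosin Myh7, with 29.4 and 312 TPM and a 9.95-fold ratio, and the slow troponin T gene Tnnt1, with 23.2 and 277 TPM and an 11.5-fold ratio. Myoz2 is itself a known slow-fibre gene, and what part fibre composition had in its difference was not tested.

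Each calsarcin had 1 main coding form. Myoz1-201 held 85.7% and 84.4%, with the retained-intron fragment Myoz1-203 at 13.4% and 14.9% in the first quantification and 0% in the second. Myoz2-201 held 89.6% and 93.5%, and Myoz3-201, the only annotated form, 100%.

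The 250 bases before the Myoz2 start (RefSeq, GRCm38.p6, 3:123034988 to 123035237, minus strand) are printed because this gene had the largest ratio of the 10, with a match to the MEF2 consensus in capitals; MEF2 factors are activators of muscle genes that CaMKII signals reach.
Myoz2 start, 250 bases before: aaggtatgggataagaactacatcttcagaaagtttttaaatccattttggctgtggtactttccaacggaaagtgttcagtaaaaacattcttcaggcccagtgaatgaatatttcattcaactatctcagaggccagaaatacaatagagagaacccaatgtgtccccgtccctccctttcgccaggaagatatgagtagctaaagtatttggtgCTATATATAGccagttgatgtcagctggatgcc

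The match lies 33 to 24 bases before the RefSeq start, and 0.509% of the 32841 promoters hold 1, searched on both strands. GENCODE M21 starts Myoz2-201 at 123035015, which falls inside the match. By that start the match is not wholly upstream, and the last bases of the printed stretch belong to the first exon. TATAAA, which 12.4% of promoters hold, is not in the window, but other forms of the TATA box were not searched. The marked stretch itself repeats TA, and its letters do not tell a MEF2 site from a TATA box. GGAAA occurs 2 times, as in 21.4% of promoters. The E-box CANNTG, the site of myogenic factors, occurs 2 times, as in 31.8%. Promoter entries matched 5 of the 10 genes, with 6 starts, and none of the other 5 starts holds the MEF2 match.

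Several of the genes are neighbours. On chromosome 14 Ppp3cb (20499364 to 20546573), Myoz1 (20649107 to 20656540) and Camk2g (20734875 to 20794088) follow each other on the minus strand with gaps of 102.5 and 78.3 kb. On chromosome 18 Myoz3 (60573750 to 60591788) and Camk2a (60925618 to 60988152) lie 333.8 kb apart. On chromosome 3 Myoz2 (123006206 to 123035015) lies 3.56 Mb from Camk2d (126596302 to 126846326), and Ppp3ca (136670124 to 136937727) follows 9.82 Mb further. Camk2b is on chromosome 11 (5969644 to 6066362) and Rcan1 on chromosome 16 (92391953 to 92470867). The log2 ratios were -0.17, -0.54 and -0.29 for Ppp3cb, Myoz1 and Camk2g, -0.24 and -0.77 for Myoz3 and Camk2a, and 3.16, -0.46 and -0.19 for Myoz2, Camk2d and Ppp3ca. Annotated genes that overlap the 10 were each under 1 TPM, and the posterior SD of the gene counts was 0 for all 10, so no reads were shared out with other genes.

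The pathway's other genes were followed in 8 lists of 49 partners, of which 44 were tested. Of these, 4 were called higher in replicate 2 and none in replicate 1, beside the 4.48% and 1.7% of all genes. Lmcd1, a LIM protein that promotes calcineurin signalling, had 8.43 and 99.8 TPM, 11.4-fold higher (10.4 to 12.6). Actn2, the alpha-actinin of all fibres that calsarcins bind, had 125 and 630 TPM, 4.93-fold higher (4.83 to 5.03). The other 2, which edgeR's exact test did not call, were Flnc, filamin C, with 96.1 and 292 TPM (2.81-fold), and Rcan2, a relative of Rcan1, with 14.7 and 25.4 TPM (2.00-fold), which lies at the threshold and lost the call with DESeq2 size factors. The median log2 ratio of the 44 was 0.11, and 0.33 with spike-in scaling.

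Upstream of both enzymes stand the calmodulins, of whose genes Calm3 had 219 and 147 TPM and Calm2 98.3 and 88.0 TPM, and neither was called. Among 8 other kinases of the calmodulin family, 5 were tested and none called. Camk1 led with 18.7 and 18.1 TPM, before Pnck (5.30 and 4.91 TPM) and Camkk2 (1.58 and 1.65 TPM). The CaMKII inhibitor genes were low and not called, with Camk2n1 at 2.15 and 3.23 TPM and Camk2n2 at 0.45 and 0.51 TPM.

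Of 13 calcineurin regulators, 2 were called, Lmcd1 and Rcan2. The most abundant were Fbxo32 (121 and 102 TPM), the ubiquitin ligase atrogin-1, and the immunophilins Ppia (116 and 102 TPM) and Fkbp1a (76.9 and 68.6 TPM), through which cyclosporin and FK506 inhibit calcineurin. None of the 5 NFAT genes was called, with Nfatc1 at 17.4 and 18.1 TPM, Nfatc3 at 11.6 and 11.1 TPM and Nfat5 at 6.33 and 9.95 TPM. The next list holds MEF2 genes, those of their class IIa deacetylase repressors and a coactivator gene. None of its 8 tested genes was called, with Mef2c at 179 and 222 TPM, Mef2d at 75.3 and 82.8 TPM and Mef2a at 49.8 and 44.4 TPM.

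At the Z-disc, 2 of 6 calsarcin partners were called, Actn2 and Flnc. Actn3, the alpha-actinin of fast fibres, was far above the others with 4664 and 3202 TPM, Tcap (telethonin) had 1132 and 1629 TPM and Ldb3 had 780 and 847 TPM. Actn3 and Myoz1 lay lower in replicate 2 and Actn2 and Myoz2 higher, with log2 ratios of -0.60, -0.54, 2.30 and 3.16.

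**Figure D5:**
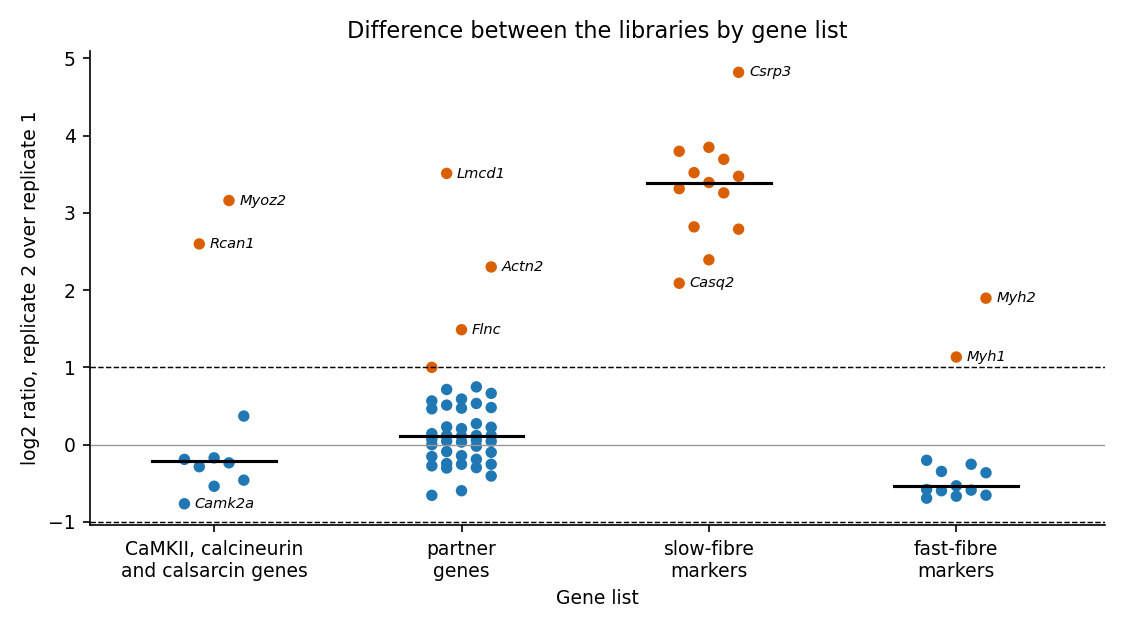
Log2 ratio of replicate 2 to replicate 1 for the 10 genes, the 44 tested partners and the slow- and fast-fibre markers; each point is a gene, orange if called, the bar is the median of the list and dashed lines mark 2-fold. The medians are -0.21, 0.11, 3.39 and -0.53, and spike-in scaling raises every point by about 0.22.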

How the data were processed

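Total RNA-seq libraries of mouse gastrocnemius (1 group, 2 libraries) were deposited as gene and transcript tables on mm10 (GENCODE M21), per the labels and the samples' file list. Programs of alignment and quantification: not given in the sources used here. Deposited by the authors were expected counts, estimated reads per gene or transcript, and TPM, a level scaled by effective length, for a first quantification from a transcriptome alignment and a second one made directly from the reads. The percent of each isoform and the posterior SD of each count, read here as a score, were deposited too, per the file headers. Totals were 40795740 and 44919441 expected counts (second quantification 39867081 and 43967795), with 0.537% and 0.474% in 96 spike-ins. The 26248 tRNA entries (1 and 2 counts) were left out, as were 87 other entries without a matching gene ID in the second quantification.

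Gene IDs were joined to symbols through the second quantification's transcript names. Counts were rounded and tested with a 2-sided exact binomial test against TMM library sizes (edgeR 4.0.16, scipy 1.17.1), over genes whose mean count reached 10, with Benjamini-Hochberg adjustment; log2 ratios use scaled counts + 0.5. Ratios with 95% intervals use no added count and cover counting error only. The test was checked on data simulated with counting noise alone, so the check does not cover the spread between libraries. edgeR's exact test took its dispersion from the difference it tests, so its p-values are not printed. Alternatives were DESeq2 1.42.0 size factors, total and spike-in scaling, filters on low counts, the second quantification, edgeR's test, no fold threshold, an added count of 5, TPM ratios, other denominators of shares, and each library alone. Figures were drawn with matplotlib 3.10.9.

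All 10 genes are named. Transcripts are named at 10% or more of a gene's TPM in any table, and partners if called or among the 3 most abundant of a list; 1 gene that this rule takes and 1 sequence are not reported here. The genes, the partner lists and the markers were chosen with earlier results of these data known. Promoter sequences came from RefSeq and exons from GENCODE M21.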

Additional observations from a re-analysis of the deposited data

How the results depend on the processing

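The series has 1 group of 2 libraries, so the intervals of the ratios cover counting error alone, not the spread between libraries or the scaling. Depth limits none of the 10 genes, the lowest of which had 602 counts. Rcan1 and Myoz2 were the members called under each of the alternatives except the one without a fold threshold, where 10 were called. Of the partners, 4 were called, 2 with edgeR's exact test (Lmcd1 and Actn2) and 28 without a fold threshold. Of 60 log2 ratios under alternatives, 58 kept direction and call; with spike-in scaling Ppp3ca (0.0329) and Ppp3cb (0.0523) turned. The Ppp3cb share of its pair (56.3%) was 51.1% in the second quantification and 54.1% from expected counts. The Myoz1 share (89.1%) was 81.2% from expected counts. The share of short Camk2a forms (62.6%) was 67.1% in the second quantification. The Camk2b-202 share (32.5%) was 32.1% there and 32.9% over coding transcripts alone. The Rcan1 internal exon's share (78.4%) was 3.43% in the second quantification, and the cause was not tested. Mean TPM moved beyond the spread in 18 of 40 cases, all with the second quantification or with TPM over nuclear protein-coding genes. The cases with 1 library left out could not move, because the spread is set by the same 2 libraries. With each library alone no test between them exists. No paired analysis was possible because there is 1 group, and its replicate numbers pair with nothing.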
